A study of Mus musculus with 6 samples.

Results

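Gene deserts are long stretches of chromosome without protein-coding genes, and the H3K27me3 peaks that lie in them were examined here. The members were all peaks on chromosomes 1 to 19 that started at or beyond 5 Mb, overlapped no protein-coding gene body of the GENCODE M1 annotation and lay more than 50 kb from every protein-coding transcription start site (TSS). Of the 11214 peaks called in 6 samples, 1822 (16.2%) met this rule, which used position only and no measured value. They were 17.7% of the 10275 peaks that could be placed on these chromosomes from 5 Mb onward. The other placed peaks were 3678 intergenic peaks within 50 kb of a TSS, called near-gene peaks below, and 4775 peaks that overlapped a gene body. Members of different samples that overlapped each other shared their sequence and were merged into regions where recurrence was counted.

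The samples were mouse primary mesangial cells, the contractile cells that hold the capillary tuft of the kidney glomerulus together, used between passages 3 and 6 grown at 25.5 mM glucose with 20% foetal bovine serum. The Control group and the TGF-β1 group had 3 samples each, and TGF-β1, a cytokine that drives matrix production in these cells, was given at 10 ng/ml for 72 h. Group membership was taken from each sample's treatment label, since the protocol text attached to all 6 samples describes the TGF-β1 treatment alone. Chromatin was precipitated with an antibody to H3K27me3 according to the titles and antibody labels, whereas the extraction text describes genomic DNA and a methylated-DNA kit, and the caller's headers name the libraries gDNA. A peak list holds no expression values, so the labelled cell type could not be checked against marker genes. The study calls the samples of a group biological replicates, but the labels do not say whether they came from separate cultures, so p-values measure the spread between these samples only. The libraries were similar in depth, with 24753483 to 25635595 tags before and 19721434 to 22307716 tags after removal of duplicates. Between 878 (TGF-β1 replicate 2) and 2699 peaks (Control replicate 2) were called per sample.

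H3K27me3 is the trimethyl mark that Polycomb repressive complex 2 writes through its catalytic subunit Ezh2, and it is known for broad domains over silent developmental genes whose promoters are CpG islands. Gene deserts are usually poor in GC and rich in interspersed repeats, and some hold distant regulatory elements of developmental transcription factors. Their sequence also includes tandem arrays, in which a short unit is copied head to tail, and stretches of the telomere repeat that lie inside chromosomes.

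The sequences under the desert peaks fell into a few recognisable kinds, and examples are shown because the recurrence and the group difference described below ran along these kinds. A peak was called telomere-type where it held 3 or more adjacent copies of TTAGGG on either strand, and hexamer-type where it held 2 or more adjacent copies of GGAGCA. Other tandem arrays were peaks in which at least 50% of bases matched the base 1 repeat unit further on, for units of up to 300 bp. CpG-rich peaks had a GC content of at least 50% and at least 0.6 times the CpG dinucleotides that their base composition would give. These limits were applied to single peaks, and some merged regions counted as CpG-rich fell below them over their whole length. Other repeated peaks were those in which more than 50% of the 31-base words occurred elsewhere in the assembly. Peaks sharing at least 10% of their 31-base words with the long region at AY036118 on chromosome 17 were set apart as AY036118-type. Telomere-type, hexamer-type, AY036118-type, tandem, CpG-rich and other repeated peaks were assigned in that order, and the kinds were defined after the peaks had been inspected.

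Of the 9 hexamer-type regions called in all 6 samples 3 are shown by the 120 bases (mm9, NCBIM37 assembly) with the most copies of the repeat, printed 5′ to 3′ with each copy of the unit in capitals, and 1 of the 8 other tandem arrays called in all 6 samples is shown by 3 units of 40 bases, the first in capitals.
hexamer-type stretch at chr3:148093936-148094055 (forward strand, between Ttll7 and Lphn2): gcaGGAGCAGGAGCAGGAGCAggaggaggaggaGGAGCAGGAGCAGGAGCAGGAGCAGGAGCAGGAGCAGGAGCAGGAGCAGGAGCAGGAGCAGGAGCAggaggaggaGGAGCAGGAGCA
hexamer-type stretch at chr19:35674184-35674303 (reverse strand, between Kif20b and Htr7): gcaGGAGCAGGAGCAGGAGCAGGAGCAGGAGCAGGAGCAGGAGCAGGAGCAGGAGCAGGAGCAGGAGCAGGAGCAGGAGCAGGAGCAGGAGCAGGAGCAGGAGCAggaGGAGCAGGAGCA
hexamer-type stretch at chr2:51410528-51410647 (reverse strand, between Rnd3 and Tas2r134): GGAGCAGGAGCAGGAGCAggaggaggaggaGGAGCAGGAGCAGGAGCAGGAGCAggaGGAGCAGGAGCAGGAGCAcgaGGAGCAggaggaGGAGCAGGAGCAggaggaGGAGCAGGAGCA
other tandem stretch at chr1:108369678-108369797 (forward strand, between Phlpp1 and Bcl2): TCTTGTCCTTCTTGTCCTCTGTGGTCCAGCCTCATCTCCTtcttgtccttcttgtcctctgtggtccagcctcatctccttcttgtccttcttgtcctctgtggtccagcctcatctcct
The 3 hexamer-type stretches held 16, 19 and 15 copies of the unit, each at a GC content of 66.7%. The 40-base array on chromosome 1 lies between Phlpp1 and Bcl2, in a region of 675 bp, and the 120 bases shown are 3 identical copies of the 40-base unit.

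The CpG-rich peaks are represented by 2 regions, each shown by the 300 bases with the most CpG dinucleotides, which are in capitals. The first had a peak in each Control sample but in none of the TGF-β1 samples, and the second in all 6 samples.
CpG-rich stretch at chr2:33399603-33399902 (forward strand, between Zbtb43 and Lmx1b): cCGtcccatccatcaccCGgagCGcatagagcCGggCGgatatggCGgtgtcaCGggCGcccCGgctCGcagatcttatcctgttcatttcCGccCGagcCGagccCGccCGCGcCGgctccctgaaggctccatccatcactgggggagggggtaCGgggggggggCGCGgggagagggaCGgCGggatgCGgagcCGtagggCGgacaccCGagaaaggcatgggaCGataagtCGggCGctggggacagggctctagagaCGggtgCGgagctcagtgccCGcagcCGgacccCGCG
CpG-rich stretch at chr17:52741606-52741905 (forward strand, between Satb1 and Kcnh8): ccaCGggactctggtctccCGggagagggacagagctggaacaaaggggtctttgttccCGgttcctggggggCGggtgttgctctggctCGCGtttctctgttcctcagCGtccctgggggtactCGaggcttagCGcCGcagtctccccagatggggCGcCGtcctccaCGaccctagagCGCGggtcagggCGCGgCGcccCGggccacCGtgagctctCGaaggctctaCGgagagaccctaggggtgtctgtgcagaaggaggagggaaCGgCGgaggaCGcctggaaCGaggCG
The first stretch held 35 CpG dinucleotides at 71.3% GC and belongs to a region whose nearest TSS was that of Zbtb43, 75.3 kb away. On its other side, at 87.5 kb, was the TSS of Lmx1b, a LIM-homeodomain transcription factor needed for the glomerular podocyte. The second held 27 at 67.7% GC and lies between Satb1, a chromatin organiser, and Kcnh8. Over its whole region the CpG ratio was 0.58, below the limit set for peaks.

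Desert peaks were sparse for the sequence they cover. Deserts made up 38.6% of the bases (909 Mb) of chromosomes 1 to 19 from 5 Mb onward but held 17.7% of the placed peaks, a ratio of 0.459. The ratio was 1.64 for near-gene sequence and 1.18 for gene bodies. Within deserts the peaks lay closer to genes than the sequence itself did, with 42.5% of peaks but 21.7% of 500-bp windows placed every 50 kb between 50 and 100 kb from a TSS, and 1.43% of peaks against 6.74% of windows beyond 1000 kb. The median distance to a TSS was 122 kb and the largest 2140 kb. Peaks just inside and just outside the 50 kb limit had similar values. The 213 desert peaks from 50 to 60 kb had a median width of 428 bp and a median GC of 47.8%, and the 284 near-gene peaks from 40 to 50 kb had 389.5 bp and 48.7%.

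The peaks were short and weakly enriched for a broad mark. Their width ran from 161 to 5727 bp with a median of 321.5 bp, and 8 of 1822 were wider than 2000 bp. Fold enrichment, the caller's ratio of tag pileup to the local background, reached 16.2 with a median of 1.82, and was at least 4 in 86 peaks (4.72%). In 1219 peaks (66.9%) the mean −log10 q over the peak was below 1. Within each of the 6 samples the median desert peak was narrower than the median gene-body peak, by 0.44 ± 0.08 (SD, n = 6 samples) on the log2 scale (exact sign-flip test, p = 0.03125, the smallest it can give, 0.0417 after Benjamini-Hochberg adjustment over 4 measures). Median fold enrichment differed from gene bodies by −0.02 ± 0.04 (SD) on the log2 scale, within the spread between samples (exact sign-flip test, p = 0.406).

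In base composition the desert peaks stood between ordinary desert sequence and gene-body peaks. Their median GC was 48.5%, against 39.8% in the 18152 desert windows, 91.7% of which lay below the median peak. Near-gene peaks had a similar median GC of 48.9%, and the medians of near-gene and gene-body windows were 43.2% and 43.0%. Gene-body peaks had a median GC of 58.0%, and within samples the desert median was lower by 8.61 ± 2.62 percentage points (SD, n = 6 samples, exact sign-flip test, p = 0.03125, adjusted p = 0.0417). The difference was −10.4, −11.1 and −11.4 points in Control and −6.85, −5.55 and −6.39 points in TGF-β1 samples, without overlap, while the mean of the sample medians for gene-body peaks was 59.2% in Control and 54.8% in TGF-β1 samples. The distribution of GC had a separate maximum between 65 and 67.5%, where the hexamer-type peaks lie with a median GC of 66.0%. The CpG ratio of desert peaks was low, with a median of 0.150 of the number given by base composition. This was close to 0.137 in desert windows and 0.177 in near-gene peaks and below 0.476 in gene-body peaks.

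**Figure D1:**
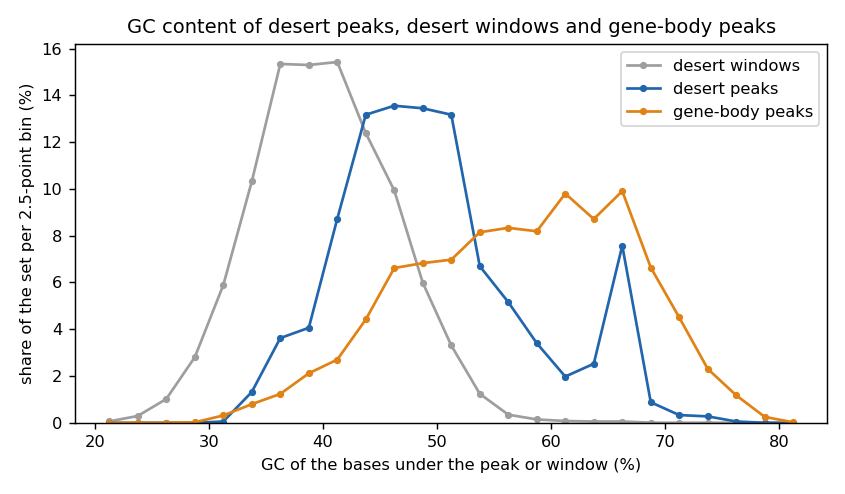
Share of desert peaks, desert windows of 500 bp and gene-body peaks in each 2.5-point bin of GC content, with GC in percent on the horizontal axis and the share of the set in percent on the vertical axis. Desert peaks centre near 48.5% GC, to the right of the windows at 39.8%, and show a second maximum between 65 and 67.5%.

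Repeated sequence was more frequent under desert peaks than under gene-body peaks. In 21.6% of desert peaks more than 50% of the 31-base words were repeated in the assembly, against 15.8% of desert windows, 18.1% of near-gene peaks and 10.3% of gene-body peaks. The sequence of the classes differed in the same direction, with 16.9% of near-gene windows and 7.01% of gene-body windows repeated. The difference from gene bodies within samples was 10.1 ± 2.27 percentage points (SD, n = 6 samples, exact sign-flip test, p = 0.03125, adjusted p = 0.0417). At a minimum mean −log10 q of 5 this difference was 12.7 points, the width difference −0.30 and the GC difference −9.74 points, none of them past the threshold over the fewer peaks (exact sign-flip tests, adjusted p = 0.208, 0.25 and 0.125). Other repeated peaks, which leave out the arrays and the CpG-rich and AY036118-type peaks, were 8.89% of desert peaks but 15.1% of desert windows. The larger repeated share under desert peaks than in desert windows therefore did not extend to that kind. Short arrays stood out. Telomere-type sequence lay under 148 desert peaks (8.12%) but in 1 of 18152 desert windows, and under 2.20% of near-gene and 2.09% of gene-body peaks. The same places were counted in several samples, and 37 of 1277 merged desert regions (2.90%) were telomere-type and 34 (2.66%) hexamer-type. Hexamer-type sequence lay under 108 desert peaks (5.93%) and in 10 desert windows, and under 2.26% of near-gene and 1.97% of gene-body peaks.

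The other kinds were 136 CpG-rich peaks (7.46%), 130 peaks on other tandem arrays (7.1%), 162 on other repeated sequence (8.89%) and 9 of the AY036118-type. CpG-rich peaks were 9.49% of near-gene and 34.6% of gene-body peaks, with 23 such desert windows. Other tandem arrays were 5.85% and 5.09%, and other repeated sequence 9.95% and 3.12%, of near-gene and gene-body peaks. The 1129 remaining peaks (62.0%) had a median GC of 47.4% and none of these features. Among the 6 larger kinds telomere-type peaks had the largest median distance to a TSS, 330 kb, against 360 kb for the 9 AY036118-type peaks. Telomere-type peaks made up 1.29% of the desert peaks at 50 to 100 kb, 37.1% of the 105 peaks between 500 and 1000 kb and 19.2% of the 26 peaks beyond 1000 kb. In these shares a place called in several samples was counted each time, and shares of merged regions by distance are not given. CpG-rich peaks had a median distance of 144 kb and were wider than the desert median, at 465.5 bp. Median fold enrichment was alike across the 6 larger kinds, from 1.80 in other repeated peaks to 1.87 in hexamer-type peaks.

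The number of desert peaks was 399, 412 and 310 in the Control samples and 300, 152 and 249 in the TGF-β1 samples. All 3 Control samples were above all 3 TGF-β1 samples, with Control replicate 3 and TGF-β1 replicate 1 next to each other, and TGF-β1 replicate 2 was the lowest. The means were 374 ± 55.5 and 234 ± 75.2 (SD, n = 3 per group), a ratio of 0.606 or −0.72 on the log2 scale with a pooled SD of 0.39 (2-sided exact permutation test, p = 0.1). With 3 samples against 3 this is the smallest p that the test can give, so no group comparison of single values can pass 0.05. Without TGF-β1 replicate 2 the log2 difference was −0.44. Covered length was 182, 202 and 131 kb in Control and 116, 70.2 and 99.3 kb in TGF-β1 samples, a log2 difference of −0.86 with a pooled SD of 0.35 (exact permutation test, p = 0.1). TGF-β1 replicate 2, which had the fewest peaks in deserts and in all, had 11% duplicate tags against 13 to 21% in the other samples, and the part of library complexity in the peak number was not tested.

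**Figure D2:**
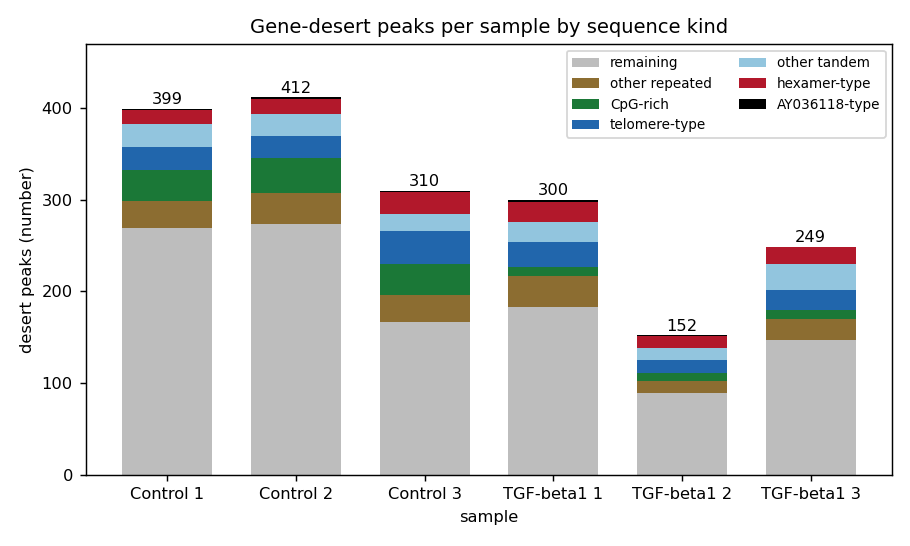
Number of desert peaks in each sample, stacked by sequence kind, with the total above each bar. The Control samples hold 310 to 412 desert peaks and the TGF-β1 samples 152 to 300, and the CpG-rich segment is visibly thinner in the 3 TGF-β1 samples.

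Desert and near-gene peaks were larger shares of the peaks in TGF-β1 samples. Desert peaks were 15.9, 16.4 and 16.9% of placed peaks in Control samples and 20.6, 20.2 and 20.6% in TGF-β1 samples, a difference of 4.09 percentage points with a pooled SD of 0.40 (exact permutation test, p = 0.1). Near-gene peaks also had a larger share, 39.5% against 34.3%, a difference of 5.17 points (exact permutation test, p = 0.1), and the share of gene-body peaks differed by −9.26 points (exact permutation test, p = 0.1). Gene-body peaks had means of 1130 in Control and 462 in TGF-β1 samples, −1.35 on the log2 scale, and near-gene peaks −0.84. The difference between the desert and the gene-body change was 0.62 on the log2 scale with a pooled SD of 0.07, and all TGF-β1 samples lay above all Control samples (exact permutation test, p = 0.1). When each list was cut to its 754 best peaks by q value, the number in the smallest list, the desert peak number was higher in TGF-β1 by 0.21 on the log2 scale (exact permutation test, p = 0.1) and the covered length by 0.13 (p = 0.3), so the direction of both depended on the length of the lists.

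Median width was 357, 375 and 321.5 bp in Control and 275, 325 and 280 bp in TGF-β1 samples, a log2 difference of −0.26 with a pooled SD of 0.12 and overlapping groups (exact permutation test, p = 0.2). Median fold enrichment was 1.81 ± 0.08 and 1.84 ± 0.06 (SD, n = 3 per group, exact permutation test, p = 0.7). Median GC was 48.2 ± 0.72% and 48.6 ± 0.65% (SD, n = 3 per group, exact permutation test, p = 0.6). The share of repeated peaks was 16.8, 18.2 and 23.2% in Control and 25, 25.7 and 26.1% in TGF-β1 samples, without overlap and with Control replicate 3 the nearest (exact permutation test, p = 0.1), but at a mean −log10 q of at least 5 it was 2.92 points lower in TGF-β1.

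Among the 6 kinds the group difference was largest for CpG-rich desert peaks. There were 34, 39 and 34 of them in Control samples and 10, 9 and 10 in TGF-β1 samples, a ratio of 0.271 or −1.88 on the log2 scale with a pooled SD of 0.10 (exact permutation test, p = 0.1, adjusted p = 0.6 over 6 kinds). The groups were far apart and each was narrow. When a sample was left out the log2 difference stayed between −1.92 and −1.82, and with lists of equal length the counts were 8, 18 and 20 against 5, 9 and 4, which overlap. The difference from all other desert peaks was −1.24 on the log2 scale with a pooled SD of 0.34, and Control and TGF-β1 samples did not overlap in it (exact permutation test, p = 0.1). CpG-rich peaks in gene bodies numbered 435, 539 and 340 against 147, 63 and 129, −2.02 on the log2 scale, and the desert and gene-body changes differed by 0.14 with a pooled SD of 0.44 (exact permutation test, p = 0.9).

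The array kinds showed no such separation. Telomere-type peaks numbered 25, 24 and 36 in Control and 27, 14 and 22 in TGF-β1 samples, −0.46 on the log2 scale with a pooled SD of 0.41 (exact permutation test, p = 0.3). Hexamer-type peaks numbered 15, 16 and 24 against 22, 13 and 18, a log2 difference of −0.05 with a pooled SD of 0.38 (exact permutation test, p = 0.9), and the 2 groups overlapped. Other tandem arrays numbered 25, 24 and 18 against 22, 13 and 28, −0.14 on the log2 scale (exact permutation test, p = 0.8). Other repeated peaks numbered 30, 33 and 29 against 34, 13 and 23, and the remaining peaks 269, 274 and 167 against 183, 89 and 147, with log2 differences of −0.50 and −0.79 (exact permutation tests, p = 0.4 and 0.2). With lists of equal length the telomere-type, hexamer-type and other tandem peaks were more numerous in TGF-β1, by 0.77, 0.69 and 0.87 on the log2 scale.

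**Figure D3:**
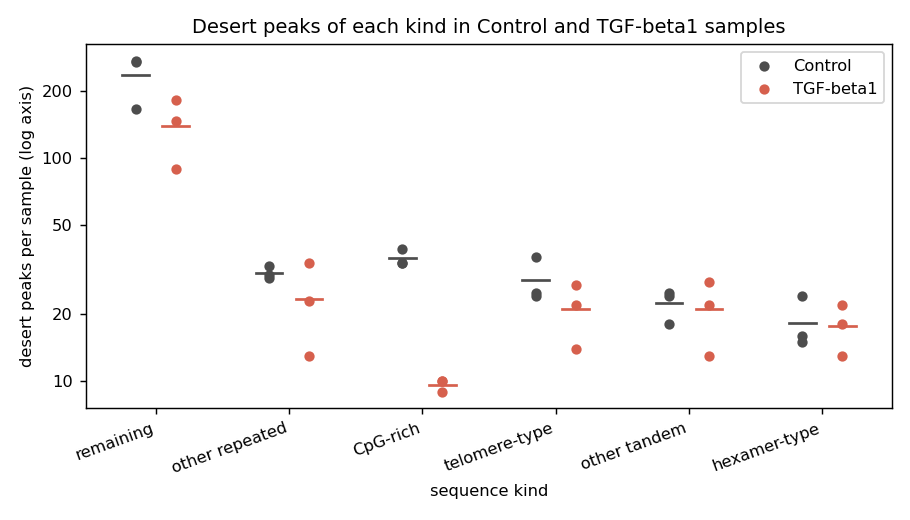
Desert peaks of each sequence kind per sample on a log axis, with grey points for the 3 Control samples, red points for the 3 TGF-β1 samples and a line at each group's mean. CpG-rich peaks are the kind in which the groups lie far apart, at 34 to 39 against 9 or 10, while the groups overlap in every other kind.

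Most desert regions were called in 1 sample, while 35.7 to 51.3% of the desert peaks of each sample overlapped a peak of another sample. Merging peaks that shared at least 1 bp gave 1277 desert regions, 2 of which also held a peak of another class, among 6924 regions in the whole series. Of these, 1065 (83.4%) were called in 1 sample, against a background of 72.5% over all regions, and 212 in 2 or more. All 6 samples called 40 desert regions (3.13%, background 3.47%). Peaks in each Control sample but in none of the TGF-β1 samples made 12 regions (0.94%, background 2.25%), and the reverse pattern had 0 desert regions (background 0.0867%). The first count was 29 without Control replicate 3, 26 without TGF-β1 replicate 1 and 23 without Control replicate 2, since fewer samples then had to hold the pattern. With lists of equal length the direction turned, with 4 Control-only and 7 TGF-β1-only regions. A further 32 had peaks in 2 Control and 0 TGF-β1 samples, and 6 in 2 TGF-β1 samples and no Control sample. Of the regions called in any Control sample 18.5% were also called in a TGF-β1 sample, and 28.7% of those called in any TGF-β1 sample were also called in a Control sample. No share over all regions is given for these last counts and overlaps. By peaks, 27.4 to 48.7% of a sample's desert peaks overlapped a peak of the other group. The range was 27.9 to 50.6% for near-gene peaks and 33.9 to 63.7% for gene-body peaks.

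Recurrence followed the sequence kind. Of the 37 telomere-type regions 32 (86.5%) were called in 2 or more samples and 11 in all 6, and of the 34 hexamer-type regions 21 (61.8%) and 9. CpG-rich regions recurred in 34 of 64 cases (53.1%), with 5 in all 6. Other tandem arrays recurred in 22 of 63 (34.9%) and other repeated regions in 21 of 107 (19.6%), whereas 80 of the 970 remaining regions (8.25%) did. Of the 40 regions called in all 6 samples, 11 were telomere-type, 9 hexamer-type, 8 other tandem and 1 AY036118-type. When peaks of these kinds were removed, 10 desert regions were called in all 6 samples. Of the 64 CpG-rich regions, 15 were called in 2 or 3 Control and 0 TGF-β1 samples and 0 in the opposite pattern. The 37 telomere-type regions had 4 and 0, the 970 remaining regions 19 and 4, and all 1277 desert regions 44 and 6. The counts of samples depend on the longer Control lists, and they are given as a description.

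**Figure D4:**
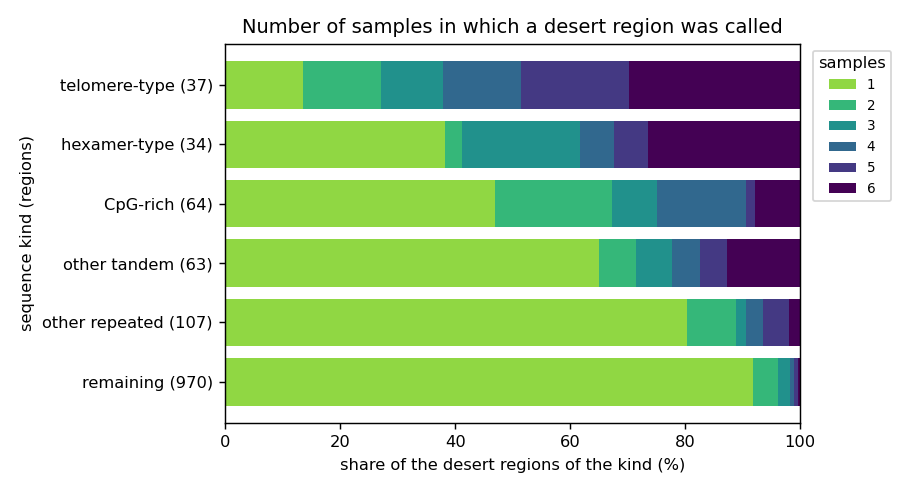
Share of the desert regions of each sequence kind, in percent on the horizontal axis, by the number of samples in which the region was called, with the number of regions in brackets. Telomere-type regions were called in 2 or more samples in 86.5% of cases, hexamer-type regions in 61.8% and the remaining regions in 8.25%.

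The strongest desert region called in all 6 samples lay on chromosome 3 at 8244693 to 8246654, between Il7, the interleukin-7 gene, and Stmn2, a neuronal microtubule regulator, 263 kb from the latter's TSS. Its fold enrichment was 8.76, 9.76 and 9.84 in Control and 7.77, 4.62 and 4.59 in TGF-β1 samples. All Control values were above all TGF-β1 values, TGF-β1 replicate 1 was close to the Control samples, and the log2 difference was −0.78 ± 0.23 (SE). In limma across all 240 regions of the series called in all 6 samples this did not pass (adjusted p = 0.441). The region was 1962 bp wide with a GC content of 40.6% and 41.9% repeated words, and belonged to none of the named kinds.

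The second was a CpG-rich region of 583 bp on chromosome 3 at 5860317 to 5860899, 284 kb from Pxmp3, a peroxisome biogenesis gene. It had fold enrichments of 3.67, 5.20 and 4.75 against 3.17, 3.82 and 3.73, with TGF-β1 replicates 2 and 3 above Control replicate 1, and 63.9% of its words were repeated (limma, adjusted p = 0.498). The telomere-type region at chr3:21597254-21597557 had 3.53, 3.42 and 3.97 against 4.56, 4.33 and 2.24. Its 2 highest values and its lowest were all TGF-β1 samples. The hexamer-type region on chromosome 18 at 81599299 to 81599723, between the developmental transcription factor Sall3 and the galanin receptor Galr1, had 4.02, 3.22 and 1.94 against 2.03, 1.85 and 1.76, with 1 Control sample below 1 TGF-β1 sample (limma, adjusted p = 0.481). The hexamer-type region between Ttll7, a tubulin-modifying enzyme, and Lphn2, an adhesion receptor, had 1.84, 2.66 and 1.95 against 2.13, 2.09 and 2.81, and the groups overlapped.

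None of the 40 desert regions passed limma's threshold of 0.05 after Benjamini-Hochberg adjustment over the 240 regions (background 0.0% higher and 0.0% lower of all 240, with 24 of the 240 at an unadjusted p under 0.05), and 3 of them had an unadjusted p under 0.05. Only regions with a peak in all 6 samples were tested, so regions without a called peak in some samples were left out beforehand. All 3 Control samples called 91 desert regions and all 3 TGF-β1 samples called 47. The median log2 difference over the 40 regions was −0.03, with 18 above and 22 below 0, beside a median of 0.07 over all 240. On pileup scaled to tags the median was −0.20, with 8 above and 32 below 0, beside −0.07 over all 240. The sign of the first median was not stable, at 0.02 without Control replicate 3 or TGF-β1 replicate 2 and 0.01 without TGF-β1 replicate 3. Among the 3, the hexamer-type region on chromosome 18 at 50662868 to 50664063 was higher in all TGF-β1 samples, at 1.54, 1.73 and 1.71 against 2.06, 2.41 and 2.42, a log2 difference of 0.47 ± 0.12 (SE, limma, adjusted p = 0.441). A tandem array on chromosome 1 at 78570235 to 78571242 had 1.43, 1.66 and 1.60 against 1.90, 1.87 and 1.98, 0.29 ± 0.11 (SE, limma, adjusted p = 0.441). The third was the chromosome 3 region between Il7 and Stmn2. In 1 simulated draw per size with the spread of these regions, 16 of 20 changes of 1 on the log2 scale were recovered, with 1 false call. Of 20 changes of 0.5, 0 were recovered. Sizes between 0.5 and 1 were not simulated, nor was the need for a call in each sample.

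**Figure D5:**
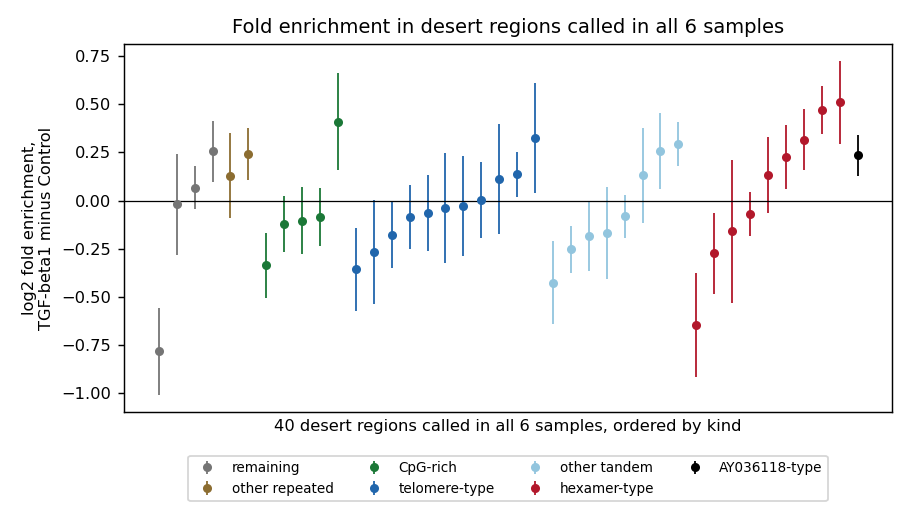
Difference in log2 fold enrichment, TGF-β1 minus Control, with its standard error from limma for each of the 40 desert regions called in all 6 samples, coloured by sequence kind. The differences scatter on both sides of 0, with 18 above and 22 below, and the lowest is the region between Il7 and Stmn2 at −0.78.

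The 12 Control-only regions comprised 5 CpG-rich regions, 5 of the remaining kind, 1 hexamer-type region and 1 on other repeated sequence. The strongest lay on chromosome 14 at 20110540 to 20110835 between Ube2e2 and Gm2244, with fold enrichments of 8.08, 8.39 and 2.41 in the Control samples. A pair of CpG-rich regions on chromosome 4, at 121870779 to 121871063 over the pseudogene Gm12896 and at 122132416 to 122132692 over Gm12895, had 1.52, 10.1 and 5.27 and 1.91, 6.86 and 7.08. All their 31-base words (100%) occurred elsewhere in the assembly, and whether tags came from other copies was not tested. The region between Zbtb43 and Lmx1b shown earlier had 2.56, 1.64 and 2.01 and no repeated words. A region of 777 bp between the glutamate receptor gene Grik3 and Csf3r, the receptor of granulocyte colony-stimulating factor, had 2.19, 2.55 and 1.21. A CpG-rich region 195 kb from Foxn3, a forkhead transcription factor, had 1.87, 1.59 and 1.78. The farthest from genes lay 2140 kb from Cdh20 on chromosome 1 at 104524699 to 104524992, with 1.75, 2.35 and 1.79. The next farthest regions called in at least 3 samples were a CpG-rich region of 1384 bp on chromosome 8 at 52000646 to 52002029, 1452 kb from 4930555F03Rik, with 1.70, 1.24 and 1.53 in Control and 1.77 in TGF-β1 replicate 1, and a repeated region on chromosome 12 at 98299598 to 98299997, called in all 6 samples at 1.39 to 2.47.

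The longest desert region called in at least 3 samples covered 5752 bp on chromosome 17 at 39979993 to 39985744, over AY036118. It had a GC content of 64.9%, a CpG ratio of 0.969 and fold enrichments of 1.72, 1.68 and 1.81 in Control and 1.94, 2.14 and 2.05 in TGF-β1 samples, the latter all higher (log2 difference 0.23 ± 0.11, SE, limma, adjusted p = 0.498). In RefSeq's table of the later GRCm38.p6 assembly AY036118 is the neighbour of Rn18s-rs5, a pseudogene related to the 18S ribosomal RNA. The next longest were 3 CpG-rich regions, each present in 3 Control samples and 1 TGF-β1 sample. The first, of 2376 bp on chromosome 1 at 123073352 to 123075727 between En1, a homeobox gene, and Insig2, a regulator of cholesterol synthesis, had 1.93, 3.47 and 3.88 in Control and 1.61 in TGF-β1 replicate 1. Over its whole length this region had a GC content of 49.7% and a CpG ratio of 0.566, below the limits set for CpG-rich peaks. The second, of 2336 bp on chromosome 7 between Tead1, a transcription factor of the Hippo pathway, and the clock gene Arntl, lay over Rassf10, a pseudogene in GENCODE M1 that the later RefSeq table lists as protein-coding. It had 2.09, 1.79 and 1.52 in Control and 1.65 in TGF-β1 replicate 2. The third covered 2225 bp between Kdm5b, a histone H3K4 demethylase, and Syt2. The fifth longest, of 2210 bp on chromosome 8 over the noncoding RNA Gm17245, was called in all 6 samples at 1.41 to 2.07.

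Desert peaks lay in 778 intervals between neighbouring protein-coding TSS, of which 410 held 1 peak and 18 held 8 or more (184 peaks). The interval between Sall3 and Galr1 on chromosome 18 held the most, 18 peaks in 7 regions, of which 2 were called in all 6 samples. The interval between Ezh2 and Pdia4 on chromosome 6 followed with 17 peaks in 7 regions, 4, 2 and 2 in Control and 4, 2 and 3 in TGF-β1 samples. Every one of those 17 peaks (100%) lay on repeated sequence, with a median fold enrichment of 3.29 and a highest value of 5.87. RefSeq's GRCm38.p6 table places Rn4.5s, annotated there as an rRNA gene, and 6 protein-coding gene models between Ezh2 and Pdia4. Distances from the peaks to those models were not computed, so whether they would remain desert peaks in the later annotation was not tested. By contrast the 12 peaks between Thap1 and Zfp703 on chromosome 8 lay in 12 regions, none of them called in 2 samples and none repeated. Per 10 Mb of desert, chromosome 8 held 45.2 peaks and chromosome 18 held 35.4, against 20.0 over all, and chromosome 9 held 5.31. The 20 peaks of chromosome 9 had a median implied background of 128 tags, against 3.40 over all desert peaks.

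Peaks whose nearest TSS belonged to a developmental transcription factor were examined as a list of gene families. They numbered 18, 22 and 15 in Control and 14, 5 and 7 in TGF-β1 samples, a log2 difference of −1.20 with a pooled SD of 0.57, beside −0.72 for all desert peaks (exact permutation test, p = 0.1). These 81 peaks were 4.45% of desert peaks and 9.56% of the CpG-rich ones, against 2.64% of desert windows. Of their 61 regions 11 (18.0%) were called in 2 or more samples, close to 16.6% of all desert regions. A telomere-type region 281 kb from Barhl2, a homeobox gene of neurons, and a tandem array 251 kb from Gata6, a zinc-finger factor of endoderm and heart, were called in 5 samples each. A region of 1821 bp lay 76.9 kb from Nkx2-1, a factor of lung and thyroid, with fold enrichments of 2.04, 1.76 and 1.48 in Control samples and 1.35 in TGF-β1 replicate 3. CpG-rich regions 80.9 kb from Pax2, a paired-box factor of kidney development, and 127 kb from Six3, a homeobox factor of the forebrain and eye, were each called in 2 Control and 0 TGF-β1 samples. Regions near Msx1, Irx3, Irx2 and Tbx3 were called in 1 sample of each group.

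Neuronal adhesion and synapse genes, which often border large deserts, were the nearest genes of 54 desert peaks (2.96%) against 7.73% of desert windows. These peaks numbered 13, 12 and 8 in Control and 13, 3 and 5 in TGF-β1 samples (exact permutation test, p = 0.4). Zinc finger genes were nearest to 52 peaks (2.85%, windows 1.07%), at 14, 13 and 4 against 10, 3 and 8 (exact permutation test, p = 0.5). Sensory receptor genes were nearest to 12 peaks (0.659%, windows 0.623%). Among single genes, Gm15319 on chromosome 8 was nearest to 3 recurrent regions and Ezh2, Pdia4, Csf3r, Galr1, Gpm6a, Tead1, Zmiz1, 9530002B09Rik and Ano6 to 2 each. Noncoding or immunoglobulin genes of GENCODE M1 lay under 87 desert peaks (4.78%), 66 in Control and 21 in TGF-β1 samples, beside 1121 and 701 for all desert peaks and 3.20% of desert windows. Most of them were processed transcripts (35), lincRNAs (33) and pseudogenes (19).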

How the data were processed

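The authors aligned the reads of each H3K27me3 library to mm9 with BWA and called broad peaks with MACS2. For its DNA methylation libraries the paper kept uniquely mapped reads only, and it describes the same handling for H3K27me3 apart from broad peak mode. Per the file headers, MACS 2.1.0.20150731 was run on each sample alone with no control library, so fold enrichment is against background estimated from the same library. The deposited lists give pileup as a signal, −log10 p and −log10 q values and the fold ratio, each averaged over the peak, and the deposited values were used as given. Replicates were not pooled in these files.

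Peaks were classed with GENCODE M1 gene models and the NCBIM37 genome. GC, CpG, tandem match and 31-base words counted on both strands over the whole assembly were computed for each peak and for 500-bp windows every 50 kb. The genome copy carried no repeat masking, so repeat families were not named. Samples were grouped by treatment label. Group values were compared by 2-sided exact permutation tests over the 6 samples, classes within samples by exact sign-flip tests, and log2 fold enrichment in limma 3.58.1 (R 4.3.3) on regions called in all 6 samples. Regions and genes were named by fixed rules: the strongest 5 in all 6 samples, the strongest 5 in 1 group only, the longest 5, the farthest 3, the 10 most frequent nearest genes and 4 gene-family lists. Other regions were named after their values were seen. The members, kinds and lists were chosen with earlier results of these data known. Methods were tested on simulated data. Python 3.11.15, numpy 2.4.6 and scipy 1.17.1 were used. Alternatives are given in the closing section. Some items are not reported here.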

Additional observations from a re-analysis of the deposited data

How the results depend on the processing

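Of 406 values under other settings 344 were counted as unchanged, 21 lost the threshold, 25 reversed and 16 moved. The causes were not tested unless stated. The exact permutation tests between groups cannot give a p below 0.1, so those values could not cross 0.05. The count of 344 is therefore no measure of robustness. Unchanged values could still shift. With lists of equal length the CpG-rich difference went from −1.88 to −1.33 (log2), beside a pooled SD of 0.10. Recurrence counts had no test. The 12 Control-only regions were counted as unchanged at 18 without Control replicate 1 and as moved at 23 without Control replicate 2. At a mean −log10 q of at least 5, the group differences in median fold enrichment (−0.0623, log2), GC (−2.15 points) and repeated share (−2.92 points) and the desert against gene-body fold enrichment (0.41) reversed. The differences from gene bodies in width (−0.30), GC (−9.74 points) and repeated share (12.7 points) lost the threshold, the recurrence counts were 102 in 1 sample, 3 in all 6 and 0 Control-only, and telomere-type peaks reversed to 0.33. Beyond 100 kb from a TSS, fold enrichment (−0.0023) and GC (−0.31 points) reversed. Without repeated peaks, fold enrichment reversed (−0.0016) and 18 regions were in all 6 samples. Without tandem peaks 10 were, with 11 Control-only regions, and the repeated share exceeded that of gene bodies by 7.59 points.

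With 754 peaks per sample, the log2 differences of peak number (0.21), covered length (0.13) and fold enrichment (−0.16) and the desert against gene-body fold enrichment (0.0392) reversed, as did telomere-type (0.77), hexamer-type (0.69), other tandem (0.87), other repeated (0.61) and remaining peaks (0.14). The recurrence counts were then 570 in 1 sample, 5 in all 6, 4 Control-only and 7 TGF-β1-only. Scaled pileup turned the region between Ttll7 and Lphn2 to −0.12. It gave 1 higher and 1 lower call among the 240 regions and 0 in deserts, where 8 regions lay above and 32 below 0.

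Leaving out each sample in turn gave −0.93 to −0.44 for peak number (log2), −0.0368 to 0.68 points for GC, and for desert against gene bodies −0.45 to −0.41 for width, −9.22 to −8.04 points for GC and 9.44 to 10.8 points for repeated share. Those last 3 lost the threshold each time, since 5 samples cannot give an exact p below 0.0625. The weakest peak-number difference was without TGF-β1 replicate 2. The median log2 difference of the 40 regions, −0.10 to 0.02, changed sign without Control replicate 3, TGF-β1 replicate 2 or TGF-β1 replicate 3. Regions numbered 41 to 50 in all remaining samples, 14 to 29 Control-only and 0 to 3 TGF-β1-only. Hexamer-type peaks gave −0.23 to 0.16 and other tandem peaks −0.39 to 0.17, and the regions between Agtr1b and Tbl1xr1 and between Ttll7 and Lphn2 gave −0.22 to 0.29 and −0.0062 to 0.30.

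Same-numbered samples did not deviate together, with correlations of −0.09, −0.04 and −0.15. Whether equal numbers mark a shared culture or batch cannot be told from these values. With the replicate number as a block the log2 difference in peak number was −0.72 (exact sign-flip test over 3 pairs, p = 0.25, the smallest it can give) and limma called 0 desert regions, with 4 at an unadjusted p under 0.05. The alternative on soft-masked bases was not run, since the genome copy had no masking. With no control library and no replicate-level tag counts, differences in peak calling and in H3K27me3 cannot be told apart.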
